A study of Caenorhabditis elegans with 14 samples.

Results

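The nematode strain HC125, which carries the transgene Psid-1::gfp, was compared with the wild type N2 by the small RNAs counted at each gene. HC125 had 4 libraries and N2 had 2, so the comparison used 6 of the 14 samples of the series, chosen by strain and by having a column in the deposited table of counts. All came from whole young adult Caenorhabditis elegans that were age-matched by a timed egg lay. RNA was treated with a polyphosphatase before the libraries were made, so that RNAs with a triphosphate at the 5′ end could be captured. The other groups shared the fit and are used below only for further levels of the same genes. They are hrde-1;HC125 (strain HC995, in which hrde-1 is mutated beside the transgene, n = 2) and the HC83 lines named non-array, silenced at generation F6 and de-silenced at F21 per the study's design text (n = 2 each). A second library type of HC125, 5' dependent (2 samples), is not analysed here. The labels give no other allele of HC125, no make-up of its transgene, and no statement that the replicates were separate cultures.

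In C. elegans, RNA-dependent RNA polymerases copy the transcripts of a targeted gene into short antisense RNAs that begin with a triphosphate. These secondary small RNAs bind Argonaute proteins and silence the gene they match, in the cytoplasm or in the nucleus, and germline nuclear Argonautes such as HRDE-1 pass the silencing to later generations. Repetitive transgenes are a known trigger of such small RNAs against the worm's own genes of the same sequence. sid-1, the source of the promoter in this transgene, encodes a channel that lets double-stranded RNA into cells and is needed for RNA interference to spread through the animal.

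Values are counts of 21 to 26 nt reads per gene. They are given as CPM, counts per 1000000 counts of a library, scaled with TMM factors. The N2 libraries were shallow, with 470115 and 847628 counts, and the HC125 libraries ranged from 451389 (replicate 1) through 1095472 and 1811918 to 3741687 (replicate 4). In N2, 3 counts equalled 6.63 and 3.35 CPM, and in HC125 6.43, 2.54, 1.66 and 0.786 CPM in replicates 1 to 4. The N2 libraries resembled each other less than they resembled some HC125 libraries. Their log2 CPM correlated across genes at 0.887 with each other, N2 replicate 2 at 0.940 with HC125 replicate 2, and N2 replicate 1 at 0.920 with HC125 replicate 4, against 0.905 to 0.976 among the HC125 libraries. Depth differs between these pairs, and its part in the correlations was not tested. Small RNAs at a gene do not measure its messenger RNA, so the labelled stage and tissue could not be checked against marker expression.

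A gene was called where edgeR's quasi-likelihood test, fitted to all 12 libraries in 5 groups, gave a Benjamini-Hochberg adjusted p under 0.05 over the 10470 genes tested. Of these 53 were called (0.506%), 23 higher in HC125 (0.220%) and 30 lower (0.287%). At an unadjusted p under 0.05 there were 1101 genes (10.5%), and the median log2 fold change over all tested genes was 0.01. In each of the 53, every HC125 library lay on one side of both N2 libraries, which was also so for 1753 of all tested genes (16.7%), 929 of them higher (8.87%) and 824 lower (7.87%). The rises were few and large and the falls more modest. The median log2 fold change was 2.84 among the genes called higher and -1.11 among those called lower, and 18 and 5 of them differed more than 4-fold. Of the 23 higher genes, 10 are 5 pairs of copies with equal or nearly equal counts, all more than 4-fold higher. Each pair therefore enters these figures more than once. Protein-coding genes made up 51 of the 53 and pseudogenes the other 2. An exact rank test of 4 against 2 libraries cannot give a two-sided p below 0.133. The 53 calls rest on a spread modelled over the 5 groups, and 18 genes were called with N2 and HC125 fitted alone.

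**Figure D1:**
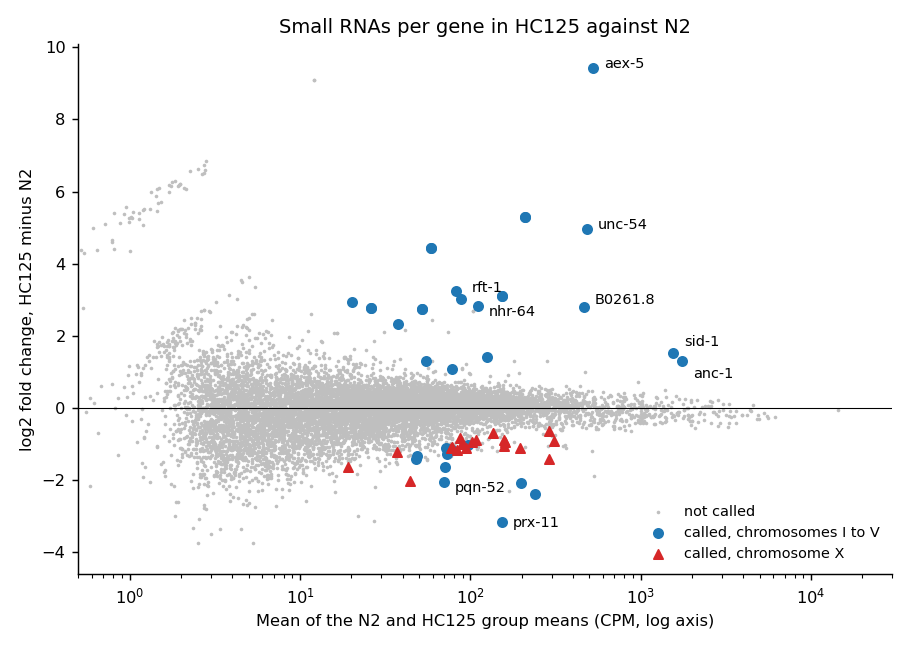
Each point is a tested gene, placed by the mean of its N2 and HC125 levels (CPM, log axis) and its log2 fold change in HC125 over N2 (n = 4 and 2); the large symbols are the 53 called genes, with chromosome X as triangles. The called genes reach 9.42 at aex-5 and -3.16 at prx-11, all triangles lie below 0, and the streaks of grey points high at the left are genes with 0 or nearly 0 counts in N2, whose fitted values depend on the prior count.

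Because N2 rested on 2 shallow libraries, each call was repeated with each of the 6 libraries left out in turn. The call was kept in all 6 by 12 genes, which carry 11 names because both copies of srd-71 are among them. Of these 8 were higher and 4 lower in HC125. The higher ones were aex-5, unc-54, srd-71, rft-1, nhr-64, B0261.8 and sid-1, and the lower ones were prx-11, pqn-52, suca-1 and C16H3.3.

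**Figure D2:**
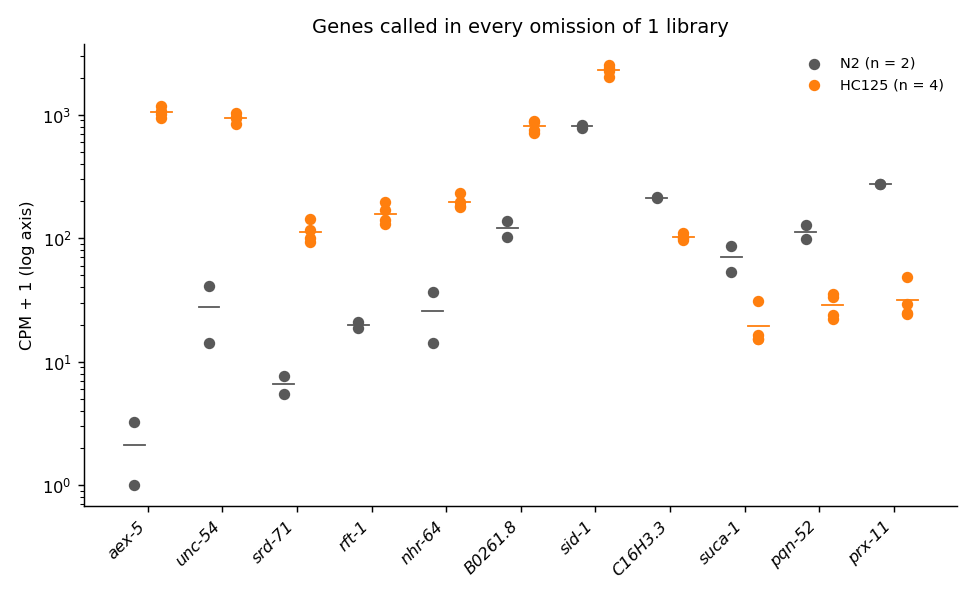
Small RNAs (CPM + 1, log axis) in each N2 (grey) and HC125 (orange) library at the 11 named genes that kept their call whichever library was left out; bars are group means. In every gene the HC125 points lie wholly above or wholly below both N2 points.

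aex-5 (WBGene00000088), a gene for a proprotein-processing protease, changed the most among the called genes. Its small RNAs were nearly absent from N2, at 0 and 2.24 CPM, and stood at 1182, 1073, 1009 and 943 CPM in the 4 HC125 libraries. In counts this was 2 against 7245, a ratio of 671 with a 95% counting interval of 185.7 to 5542 (adjusted p = 5.23e-11, edgeR). The interval covers counting error only. Without N2 replicate 1 the ratio was 446 (123.3 to 3681), and without N2 replicate 2, which held both counts, it was at least 150.2-fold at a floor of 3 counts in N2.

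unc-54 (WBGene00006789), the gene of a body wall muscle myosin heavy chain, lies 73 bases from aex-5 on the same strand of chromosome I (unc-54 at I:14855901-14863482 and aex-5 at I:14850052-14855827, minus strand, build WBcel235). It had 13.3 and 40.2 CPM in N2 and 964, 1026, 840 and 940 CPM in HC125. All 4 HC125 libraries were far above both N2 libraries, and the log2 fold change was 4.97 ± 0.42 (SE, adjusted p = 0.000161, edgeR), or 6.16 without N2 replicate 2. The call ended when N2 replicate 2 and HC125 replicates 1 and 2 were left out together (6.09). maph-1.1, which overlaps aex-5 on the other strand, overlapped between the strains, at 1193 and 816 CPM in N2 and 870, 725, 1286 and 1120 in HC125 (log2 fold change 0.01 ± 0.20). The next gene on the far side of aex-5, metl-17, was at -0.29 ± 0.23 (adjusted p = 0.652). The strand setting of the counting is not given, so reads of overlapping genes cannot be assigned to a strand. The 3′ end of unc-54 is a common part of worm gfp vectors. Whether this transgene holds it is not given in the labels, and counts per gene hold no positions within a gene.

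sid-1 (WBGene00004795, V:5119970-5126916) had small RNAs in both strains, with 833 and 782 CPM in N2 and 2531, 2388, 2022 and 2269 in HC125. The lowest HC125 library was above the higher N2 library by more than the range within either strain. The log2 fold change of 1.51 ± 0.14 (adjusted p = 9.65e-06, edgeR) stayed between 1.39 and 1.62 in the 14 alternative settings tried. Of the genes around sid-1, edgeR called none and DESeq2 called C04F5.8. C04F5.9, the nearest on one side, had 72.9 and 58.1 CPM in N2 and 68.6 to 118 in HC125 (0.41 ± 0.25, adjusted p = 0.585). Behind it, C04F5.8 had 24.3 and 22.4 CPM in N2 and 6.43, 10.99, 8.84 and 7.07 in HC125, a log2 fold change of -1.46 ± 0.34 that missed the threshold (adjusted p = 0.0812, edgeR). It was called lower by DESeq2, without the low-count filter, without HC125 replicate 2 and without HC125 replicates 1 and 2. ugt-63 and F14F9.4 overlapped between strains, and the counts of F14F9.5 and F14F9.8 were below the filter.

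The other genes called higher whichever library was left out lie away from sid-1 and unc-54. B0261.8 (WBGene00015096, I:5271265-5272041) had 137 and 102 CPM in N2 and 889, 757, 881 and 714 in HC125, a log2 fold change of 2.79 ± 0.21 (adjusted p = 1.76e-06, edgeR). Its neighbours on the same strand were not called, B0261.7 at 323 bases with -0.24 ± 0.20 and C01G8.1 at 804 bases with 0.35 ± 0.19. rft-1 (WBGene00044637, V:4438932-4443223), a riboflavin transporter gene, had 17.7 and 20.1 CPM in N2 and 167, 195, 138 and 129 in HC125 (3.01 ± 0.26, adjusted p = 4.27e-06). Its paralogue rft-2, which begins 79 bases away, was at 0.33 ± 0.36 (adjusted p = 0.768). The difference between these neighbours was not tested.

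nhr-64 (WBGene00003654, I:3101851-3109621), a nuclear hormone receptor gene, had 13.3 and 35.8 CPM in N2 and 231, 178, 197 and 181 in HC125 (2.84 ± 0.26, adjusted p = 6.74e-06, edgeR). The log2 fold change depended on the N2 library left out, at 2.42 without replicate 1 and 3.88 without replicate 2. srd-71, a chemoreceptor gene with 2 copies on chromosome V, had 6.63 and 4.47 CPM in N2 and 92.1, 142, 98.9 and 115.8 in HC125 (4.43 ± 0.36, adjusted p = 2.22e-06). Both copies have the same count in every library, so reads cannot be assigned to one of them, and its N2 levels equal 3 and 4 counts.

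Among the genes called lower whichever library was left out, prx-11 (WBGene00004196, I:12971615-12972259) fell the most. It belongs to the peroxisome biogenesis genes. It had 272 and 276 CPM in N2 and 23.6, 47.3, 23.2 and 28.3 in HC125, a log2 fold change of -3.16 ± 0.25 (adjusted p = 6.74e-06, edgeR). Even the highest HC125 library, replicate 2, was far below both N2 libraries. gale-1, which overlaps it on the same strand, was at 0.04 ± 0.31, with 19.9 and 21.2 CPM in N2 and 16.1 to 25.4 in HC125. The genes beside it, eif-6 and efsc-1, were at 0.12 and -0.04.

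pqn-52 (WBGene00019713, I:5566343-5570085), which encodes a protein with a glutamine- and asparagine-rich domain, had 126 and 97.2 CPM in N2 and 34.3, 21.1, 32.6 and 23.1 in HC125 (-2.04 ± 0.24, adjusted p = 0.000161, edgeR). fubl-4, which ends 73 bases from it, was at 0.28 ± 0.27. suca-1 (WBGene00009812, X:10897678-10900114), a subunit of the succinyl-CoA ligase of mitochondria, had 86.2 and 52.5 CPM in N2 and 29.98, 14.4, 14.4 and 15.5 in HC125. Its fall of 2.01 on the log2 scale (SE 0.29, adjusted p = 0.00201, edgeR) was not called when N2 and HC125 were fitted alone. C16H3.3 (WBGene00015868, X:17601611-17610048) had 214 and 210 CPM in N2 and 101, 96.4, 109 and 100.3 in HC125 (-1.06 ± 0.15, adjusted p = 0.00201). Its range within each strain was narrow, so the groups were well apart.

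Most genes beside the called ones were not called. Next to the 5 loci with the smallest adjusted p in each direction lay 20 nearest genes, of which 8 were below the filter, 12 were tested and 1, unc-54 beside aex-5, was called. C13B7.6, beside srd-71, was higher in every HC125 library without passing, with 19.9 and 34.7 CPM in N2 and 103, 108, 243 and 268 in HC125 (2.70 ± 0.52, adjusted p = 0.0877). It was called by DESeq2 and with HC125 replicate 1 or 2 left out.

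The levels of these genes in the other groups differed in kind. HC125 was also compared with the mean of the non-array groups, where 72 of the tested genes were called (0.688%). This comparison shares the HC125 libraries with the first, so the 2 are given side by side and neither backs the other. aex-5 was at 0 to 1.29 CPM and unc-54 at 8.53 to 23.8 CPM in the 4 non-array libraries, within or near the N2 range. Both were high in hrde-1;HC125, with 659 and 574 CPM at aex-5 and 2694 and 1244 at unc-54. Against the non-array groups HC125 was higher by 10.29 ± 0.24 at aex-5 (adjusted p = 1.28e-14) and 6.0 ± 0.31 at unc-54 (adjusted p = 2.43e-06). At these genes small RNAs were high in both groups with the transgene and low in every other library.

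B0261.8, rft-1, nhr-64 and srd-71 gave another order, in which N2 lay below the non-array lines too. B0261.8 had 707 to 1132 CPM in the non-array libraries and was at -0.28 ± 0.14 in HC125 against them (adjusted p = 0.453). rft-1 had 79.7 to 177 CPM there (0.40 ± 0.14, adjusted p = 0.265), nhr-64 had 203 to 258 (-0.26 ± 0.15, adjusted p = 0.516) and srd-71 had 114 to 143 (-0.13 ± 0.15, adjusted p = 0.831). In hrde-1;HC125, B0261.8, rft-1 and nhr-64 were above every HC125 library, while srd-71 was at 4.68 and 7.25 CPM, as in N2. At B0261.8, rft-1 and nhr-64 both N2 libraries lay below the 10 other libraries. At these genes levels were high in the groups with the transgene and in the non-array lines alike. What set N2 apart was not tested.

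prx-11 and suca-1 were lower in HC125 than in N2 and than in the non-array groups. prx-11 had 182 to 300.1 CPM in the non-array libraries (-2.95 ± 0.22 in HC125 against them, adjusted p = 3.60e-06) and 12.4 and 15.8 in hrde-1;HC125. suca-1 had 41.4 to 65.8 CPM there (-1.60 ± 0.23, adjusted p = 0.000804) and 8.18 and 6.44 in hrde-1;HC125. In hrde-1;HC125 both were below every HC125 library. pqn-52 and C16H3.3 were not called against the non-array groups, at -0.46 ± 0.20 and -0.34 ± 0.12. sid-1 was not called there either (0.33 ± 0.11, adjusted p = 0.223). The mean over the non-array groups joins 4713 and 4141 CPM at F6 with 728 and 798 at F21, and HC125 lay between them. In hrde-1;HC125, which also carries the transgene, sid-1 was at 555 and 504 CPM, below both N2 libraries.

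**Figure D3:**
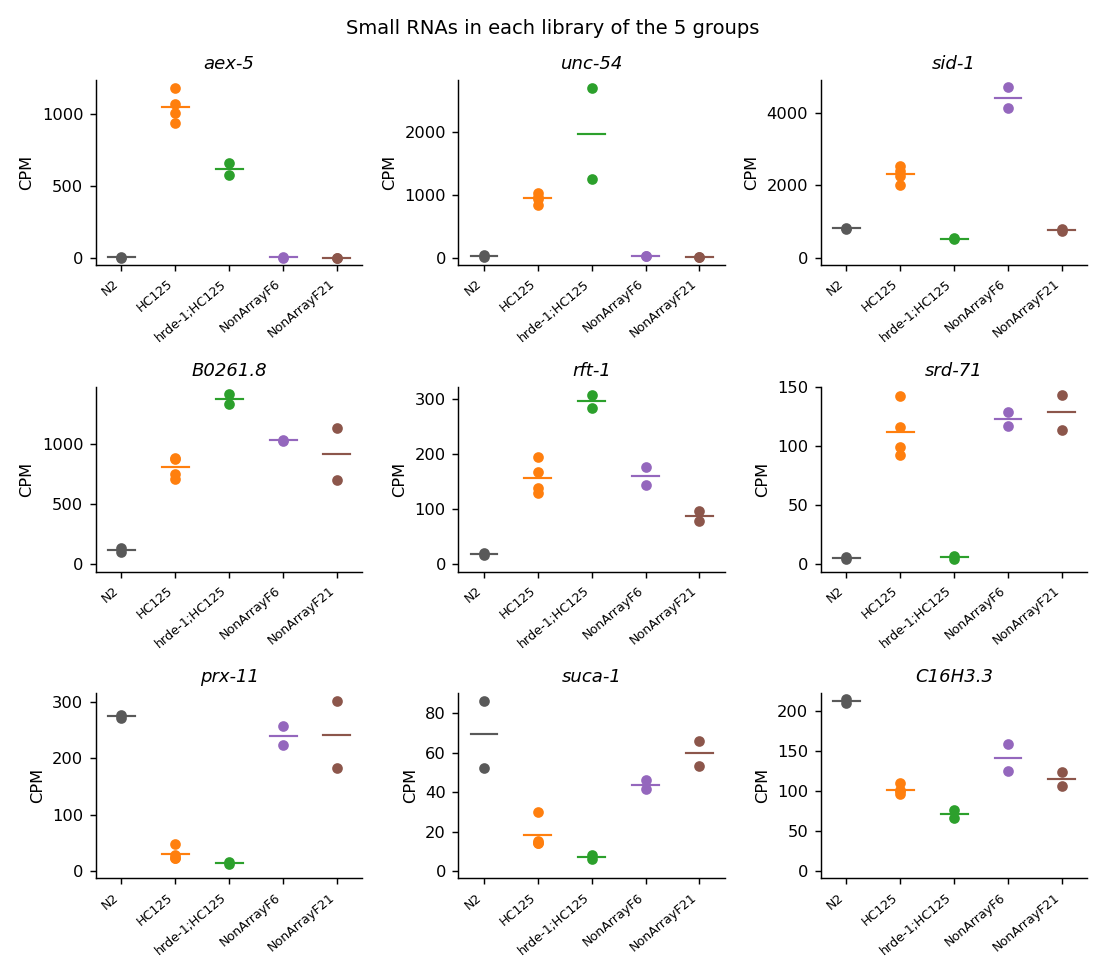
Small RNAs (CPM, linear axes from 0) at 9 named genes in every library of the 5 groups; points are libraries and bars are group means (n = 4 in HC125 and 2 in each other group). aex-5 and unc-54 are high in the groups with the transgene alone, B0261.8 and rft-1 are low in N2 alone, srd-71 is low in N2 and hrde-1;HC125, and prx-11 is low in HC125 and hrde-1;HC125.

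Of the 23 genes called higher, 10 are 5 pairs of copies in one duplicated stretch of chromosome V, so that 18 names remain. Beside srd-71 these are C01B4.6, F56A4.12, the monocarboxylate transporter family gene mct-2 and the C-type lectin gene clec-209, with their copies 107961 or 108279 bases apart. C01B4.6 had 11.05 and 15.7 CPM in N2 and 64.3, 62.5, 129 and 106 in HC125 (2.75 ± 0.39, adjusted p = 0.00358, edgeR). mct-2 had 19.9 and 41.4 CPM in N2 and 163, 203, 366 and 377 in HC125 (3.1 ± 0.44, adjusted p = 0.0143). clec-209 had 11.05 and 10.06 CPM in N2 and 270, 156, 665 and 532 in HC125 (5.30 ± 0.84, adjusted p = 0.0466). At these 3 genes HC125 replicates 3 and 4 were above 1 and 2. Apart from srd-71, each of these lost its call when either N2 library was left out, with log2 fold changes then between 2.57 and 5.34 (3.85 for mct-2 without N2 replicate 2), and clec-209 also without HC125 replicate 1 or 4. All 5 were low in hrde-1;HC125 as well, between 2.42 and 45.1 CPM, and in the range of HC125 or near it in the non-array lines. srd-73, another chemoreceptor gene with 2 copies there, had no count in N2 and 6.43, 5.92, 42.01 and 41.9 CPM in HC125, at least 15.2-fold more at a floor of 3 counts over N2, and was not called by edgeR (adjusted p = 0.383), though DESeq2 called it.

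The remaining genes called higher depended on the N2 libraries. H14A12.5 (WBGene00019197), which overlaps the fumarase gene fum-1 on the other strand, had 83.95 and 57.0 CPM in N2 and 148, 238, 175 and 160 in HC125 (1.41 ± 0.23, adjusted p = 0.00656, edgeR), while fum-1 itself was at 0.42 ± 0.24. It was 2.67 ± 0.17 above the non-array groups (adjusted p = 7.89e-08), and lost its call against N2 without N2 replicate 2 (1.12, adjusted p = 0.156). gid-7, of the GID ubiquitin ligase family, had 33.1 and 31.3 CPM in N2 and 72.8, 78.6, 86.2 and 75.4 in HC125 (1.30 ± 0.22, adjusted p = 0.00874). pho-11, an acid phosphatase gene, had 13.3 and 12.3 CPM in N2 and 59.96, 37.2, 81.3 and 69.4 in HC125 (2.32 ± 0.40, adjusted p = 0.0135). Both lost their call without N2 replicate 1 (log2 fold changes 1.31 and 2.34) or replicate 2 (1.26 and 2.27). Both were called higher than the non-array groups (1.51 ± 0.15 and 1.53 ± 0.22). In hrde-1;HC125, H14A12.5 was at 5.68 and 7.52 CPM, below both N2 libraries. There gid-7 was at 25.05 and 28.5 CPM and pho-11 at 230 and 157.

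anc-1, which encodes a giant protein that anchors nuclei, had 1268 and 760.0 CPM of small RNAs in N2 and 2955, 2250, 2582 and 2115 in HC125 (1.29 ± 0.22, adjusted p = 0.0143, edgeR). The call ended without N2 replicate 2 (0.97, adjusted p = 0.0879) and without HC125 replicate 3 (1.26, adjusted p = 0.0510). The spermidine synthase gene spds-1 had 22.1 and 11.2 CPM in N2 and 189, 213, 92.3 and 102 in HC125 (3.24 ± 0.51, adjusted p = 0.0224), and lost its call without N2 replicate 1 or 2 or HC125 replicate 1. At both genes every HC125 library was above both N2 libraries. ZK1128.7 rose by 1.09 ± 0.21 (adjusted p = 0.0193) and lost its call when either N2 library was left out (adjusted p 0.130 and 0.137). Y71H2AL.2 had 2.21 and 5.59 CPM in N2 and 57.8, 37.2, 24.9 and 26.5 in HC125 (2.95 ± 0.61, adjusted p = 0.0412). Its call ended without N2 replicate 1 or 2 (3.91 without the latter) and without HC125 replicate 1 or 4. Against the non-array groups anc-1 was at 0.22 ± 0.17, spds-1 at -0.85 ± 0.26, ZK1128.7 at 0.14 ± 0.14 and Y71H2AL.2 at 1.47 ± 0.33. None of them was called there. In hrde-1;HC125 anc-1 was at 563 and 662 CPM, spds-1 at 256 and 231, ZK1128.7 at 349.5 and 338 and Y71H2AL.2 at 0.167 and 1.07.

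Among the other genes called lower, ttn-1, the titin-like giant muscle protein, had 124 and 89.4 CPM in N2 and 34.3, 41.4, 35.4 and 27.5 in HC125 (-1.62 ± 0.25, adjusted p = 0.00389, edgeR). Its non-array libraries, at 29.9 to 40.9 CPM, lay close to HC125 (0.01 ± 0.21). Without N2 replicate 1 its call ended narrowly (-1.42, adjusted p = 0.0559). R03D7.2, one of the listed targets of nuclear small RNAs, was at 466 and 172 CPM in N2. Its HC125 libraries were at 101, 68.5, 71.9 and 64.2 CPM, while hrde-1;HC125 stood at 974 and 985. Its log2 fold change of -2.08 ± 0.32 (adjusted p = 0.0180) became -1.26 without N2 replicate 1 and -2.66 without N2 replicate 2. Among omissions of 1 library, its call ended only without HC125 replicate 3 or 4 (adjusted p 0.119 and 0.0591). fbxa-216, an F-box gene, had 482 and 320 CPM in N2 and 53.5, 115.8, 71.9 and 61.3 in HC125 (-2.38 ± 0.39, adjusted p = 0.0412). This call ended in all omissions but that of HC125 replicate 2.

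T08B2.11 fell by 1.27 ± 0.23 (adjusted p = 0.0135, edgeR) and W03H9.1 by 1.03 ± 0.19 (adjusted p = 0.0165), and both lost their call without N2 replicate 1 or HC125 replicate 4. The zinc transporter gene ttm-1 fell by 1.41 ± 0.26 (adjusted p = 0.0164), with 79.5 and 59.2 CPM in N2 and 20.3 to 32.1 in HC125, and its call ended when either N2 library was left out. Y56A3A.7 (-1.33), Y77E11A.8 (-1.1) and F19B2.6 (-1.16) lost theirs without N2 replicate 1, N2 replicate 2 or HC125 replicate 4. Y77E11A.8 and F19B2.6 also lost theirs without HC125 replicate 3. F19B2.6 was also called lower than the non-array groups (-1.08 ± 0.18), unlike T08B2.11, W03H9.1, ttm-1, Y56A3A.7 and Y77E11A.8.

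The genes called lower were concentrated on chromosome X, a pattern chosen for description after the calls were seen. X holds 990 of the 10470 tested genes (9.46%), yet 19 of the 30 lower genes and 0 of the 23 higher ones lie on it. DESeq2 also called 0 X genes higher. Without HC125 replicates 1 and 2, 10 X genes were called higher. With N2 replicate 2 left out as well there were 2, and without the low-count filter 1. At an unadjusted p under 0.05, 31 X genes were higher and 97 lower, against 534 and 420 on I to V. On X 1.92% of the tested genes were called lower, against 0.118% on chromosomes I to V together. In C. elegans the X chromosome is largely silent in the germline and carries few germline genes. The 19 fell by 0.64 to 2.01 on the log2 scale, with a median of -1.06, and the closest 2 of their start positions are 6007 bases apart. They lie along the chromosome from position 131022 to 17610048.

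After suca-1 and C16H3.3, the X genes called lower with the smallest adjusted p were Y81B9A.1, gly-13 and lnp-1. Y81B9A.1 had 457 and 372 CPM in N2 and 186, 209, 127 and 118 in HC125 (-1.40 ± 0.21, adjusted p = 0.00358, edgeR). gly-13, an N-acetylglucosaminyltransferase gene, had 232 and 294 CPM in N2 and 141, 127, 122 and 111 in HC125 (-1.1 ± 0.18, adjusted p = 0.00557). lnp-1, which encodes the endoplasmic reticulum protein lunapark, had 126 and 103 CPM in N2 and 59.96, 55.8, 52.5 and 40.9 in HC125 (-1.16 ± 0.19, adjusted p = 0.00839). In all 3 the lowest N2 library was above the highest HC125 library. The calls of Y81B9A.1 (-1.27) and lnp-1 (-1.05) ended without N2 replicate 1, and that of gly-13 (-0.90) without N2 replicate 2. Against the non-array groups Y81B9A.1 (-0.96 ± 0.17) and lnp-1 (-1.09 ± 0.15) were also called lower, and gly-13 (-0.34 ± 0.14) was not.

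The remaining 14 X genes called lower were at -0.64 to -1.64, and all 14 lost their call without N2 replicate 1, where they were at -0.50 to -1.58. The DOT1 family histone methyltransferase gene dot-1.2 was at -1.11, gfi-3 at -0.94, R04E5.8 at -0.91, the pseudogenes Y73B3A.13 and Y73B3A.7 at -0.98 and -0.94, C45B2.6 at -1.11 and F39C12.1 at -0.88. The mitochondrial ATP synthase subunit gene asb-2 was at -0.89, the Cockayne syndrome B homologue csb-1 at -1.21, sor-3 at -1.64, F28H6.4 at -1.08, Y16B4A.2 at -0.83 and T25D1.1 at -0.64. lin-15B, a synMuv gene whose locus serves as a transformation marker, was at -0.70 ± 0.15 (adjusted p = 0.0483), with 157 and 180 CPM in N2 and 92.1, 118, 96.7 and 107 in HC125. lin-15A, in the same locus, was at -1.39 ± 0.31 and missed the threshold in edgeR (adjusted p = 0.0646), while DESeq2 called it lower. Of the 14, C45B2.6 (-1.03), Y73B3A.7 (-0.78), asb-2 (-0.72), csb-1 (-0.95), F28H6.4 (-0.86) and lin-15B (-0.65) were also called lower than the non-array groups. The rest of the 14 were not.

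Summed over the 19 genes, N2 had 3566 and 3106 CPM and HC125 had 1795, 1764, 1633 and 1529. The non-array libraries lay between them at 2508 to 2699 CPM, and hrde-1;HC125 was lowest at 678 and 609. The sum restates how these genes were chosen and is given with no test. Over all X genes the difference was small. The share of a library's counts on X was 8.34% and 7.14% in N2 and 7.36%, 6.77%, 6.88% and 6.86% in HC125, which overlap, and HC125 minus N2 went from -0.772 percentage points to -0.169 without N2 replicate 1. Levels below both N2 libraries in every HC125 library were found for 14.8% of the tested X genes and 7.03% of those on I to V, where the share over all tested genes was 7.87%.

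The median log2 fold change was -0.10 on X and 0.02 on I to V. In 4 bins of equal size by mean level over all tested genes, it was -0.04 on X and -0.14 on I to V in the lowest bin and -0.21 against 0.05 in the highest, where 16 of 146 X genes and 8 of 2426 others were called lower. The X median was below that of the other chromosomes in the 2 upper bins alone. The number of X genes called lower changed with the libraries and the fit. It was 4 of 14 lower calls without N2 replicate 1, 11 of 27 without N2 replicate 2, and 17 of 33, 22 of 52, 9 of 16 and 8 of 12 without HC125 replicates 1, 2, 3 and 4. Without HC125 replicates 1 and 2 it was 60 of 500, without HC125 replicates 3 and 4 it was 6 of 11, and with N2 replicate 2 and HC125 replicates 1 and 2 left out it was 60 of 269. It was 2 of 6 with N2 and HC125 fitted alone, 6 of 16 under the replicate block, 14 of 24 with library size scaling alone, 25 of 64 with DESeq2 and 32 of 163 without the low-count filter.

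**Figure D4:**
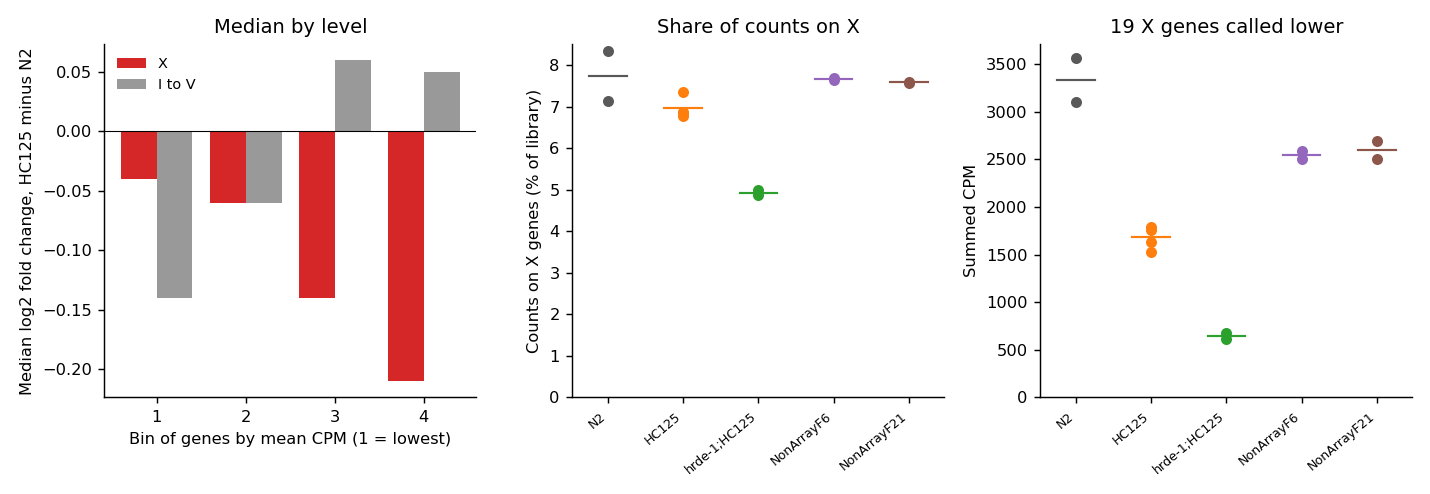
Left, median log2 fold change of HC125 over N2 for tested genes on X and on I to V, in 4 bins of equal size by mean CPM; middle, share of each library's counts on X genes (percent); right, summed CPM of the 19 X genes called lower, by library, with group means as bars. The X median falls to -0.21 in the highest bin, while the shares on X in N2 (8.34% and 7.14%) and HC125 (6.77% to 7.36%) overlap.

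Gene lists of small RNA pathways and of tissues showed few called members. They are read against the 0.220% of all tested genes that were called higher and the 0.287% called lower. At an unadjusted p under 0.05 these shares were 5.48% higher and 5.03% lower. In the systemic RNAi list sid-1 alone of 5 tested genes was called. rsd-3 and sid-3, which also act in the spread of RNAi, were at 0.66 ± 0.41 and 0.65 ± 0.44. None of 12 nuclear RNAi factors was called (median 0.06), with hrde-1 at 0.28 ± 0.17, 857 and 813 CPM in N2 and 835 to 1268 in HC125. None of 18 Argonaute genes (median 0.08) and none of 36 genes of RNA-dependent RNA polymerases, Dicer and mutator factors (median 0.10) was called, and at an unadjusted p under 0.05 there were 3 and 2. DESeq2 called 0 genes in these last 3 lists. Small RNAs at csr-1, a germline Argonaute gene, were at 0.35 ± 0.15, with 820 and 967 CPM in N2 and 979 to 1299 in HC125.

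None of 16 targets of the ERGO-1 class, the 26G small RNAs of oocytes and embryos, was called by edgeR or DESeq2 (median -0.20). At an unadjusted p under 0.05 there were 4, all lower. The list summed to 18200 and 17390 CPM in N2 and 16050, 15470, 13750 and 13190 in HC125. Of the 7 listed WAGO targets R03D7.2 was called (median -0.22), and DESeq2 also called F37D6.3, which was at -0.43 ± 0.13 in edgeR. Muscle genes had 1 call in each direction among 15, unc-54 and ttn-1, with lev-11 (tropomyosin) at 0.91 ± 0.34. The list's median was 0.00. Of 10 vector and transformation marker genes unc-54 rose and lin-15B fell in edgeR, DESeq2 called these and lin-15A, and 4 had an unadjusted p under 0.05. prx-11 was the 1 called gene of 9 of the peroxisome list (median -0.38), where 8 lay below 0; prx-13 was at -0.38 ± 0.15 and prx-10 at -0.32 ± 0.23. No gene was called by edgeR or DESeq2 among 11 intestine, 6 hypodermis and cuticle or 10 neuron genes, with medians of -0.17, 0.00 and 0.14 and 1, 0 and 0 genes at an unadjusted p under 0.05.

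Germline lists held no called gene. None of 46 germline and oocyte genes was called by edgeR or DESeq2 (6 at an unadjusted p under 0.05, all higher). Their median was 0.21 and 40 lay above 0, against 5331 above 0 of all 10470. cgh-1, a germline RNA helicase gene, was at 0.48 ± 0.16, with 192 and 224 CPM in N2 and 240, 268, 349 and 300 in HC125. None of 24 spermatogenesis genes or 31 major sperm protein genes was called by either tool, at an unadjusted p under 0.05 there was 1 in each, and their medians were -0.59 and -0.72. These medians depended on libraries of both strains. Without N2 replicate 2 they were 0.71 and 0.47, and without N2 replicate 1 they were -1.18 and -1.21. Without HC125 replicates 3 and 4 they were -0.07 and -0.12, and without HC125 replicates 1 and 2 they were -1.40 and -1.34. The summed level of the 31 major sperm protein genes was 596 and 1799 CPM in N2 and 1326, 1217, 691 and 416 in HC125, so the strains overlapped.

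None of 71 histone genes (median 0.25) and none of 75 ribosomal protein genes (median -0.01) was called by either tool. At an unadjusted p under 0.05 there were 5 and 1, all higher. The histone median was 0.01 without HC125 replicate 3, -0.17 without HC125 replicates 3 and 4, and 0.48 without HC125 replicates 1 and 2. In large gene families, the members called by edgeR were both copies of srd-71 among 74 chemoreceptor genes, both copies of clec-209 among 43 C-type lectin genes and fbxa-216 among 171 F-box genes. DESeq2 also called both copies of srd-73 higher and the F-box genes fbxa-136 and fbxb-85 lower. None of 46 MATH and BTB genes was called by either tool. At an unadjusted p under 0.05, F-box genes had 4 higher and 23 lower, and MATH and BTB genes 0 higher and 8 lower, where 5.48% of all tested genes were higher and 5.03% lower. Their medians were -0.16 and -0.10, and the F-box median was 0.02 without N2 replicate 1.

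**Figure D5:**
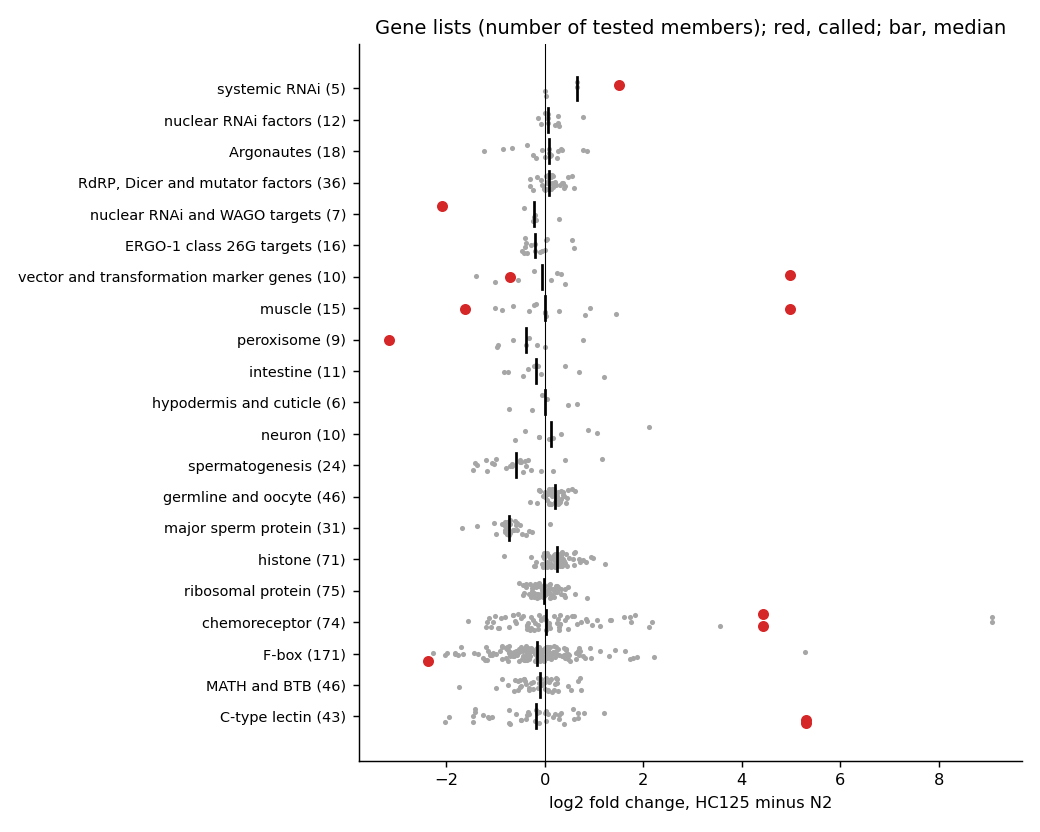
Log2 fold change of HC125 over N2 at each tested member of 21 gene lists (number tested in brackets); red points are called genes, grey points are not, and black bars are medians. Medians lie between -0.72 for major sperm protein genes and 0.65 for systemic RNAi, and the called members stand outside the spread of most of their lists; the 2 grey points near 9 are the copies of srd-73, with no count in N2.

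The make-up of the libraries was close between strains. Protein-coding genes took 89.4% and 91.2% of the counts in N2 and 90.5% to 91.6% in HC125, and pseudogenes 8.10% and 6.80% in N2 and 6.17% to 7.51% in HC125. The most abundant small RNA target, the pseudogene Y52B11A.18, had 17380 and 11720 CPM in N2 and 9789, 7540, 22570 and 16140 in HC125, which overlap. The other 7 of the 8 most abundant genes, F37H8.2, W09C5.12, bath-45, zip-2, F15D4.5, B0250.8 and eri-6, were at -0.14 to -0.31 and none was called. Genes at 0 in both N2 libraries and counted in all 4 HC125 libraries numbered 173, of which 38 had enough counts to be tested. Of these, 0 were called by edgeR, 2 by DESeq2, and 29 had an unadjusted p under 0.05. Being at 0 in N2 chose these genes and their HC125 counts took them past the filter, so these counts restate the choice and support nothing. The reverse held for 24 genes, 0 of them tested. The deeper HC125 libraries can show a scarce small RNA that the N2 libraries would miss, so a true absence from N2 was not detectable at this depth.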

How the data were processed

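The authors deposited raw counts of 21 to 26 nt reads per gene in 12 libraries. Bowtie2 and HTSeq are named in the submitters' processing notes, but no version, genome build, strand setting or handling of multi-mapped reads is stated there. Totals are counts at genes, not sequencing depth. Names and coordinates came from Ensembl release 115 (WBcel235) by gene ID, for 20194 of 20541 IDs; 2 pseudogenes were named from RefSeq entries with the same coordinates. Groups followed the strain in the sample titles. In R 4.3.3, edgeR 4.0.16 fitted 12 libraries in 5 groups (7 residual degrees of freedom) using TMM, filterByExpr (minimum count 10, minimum total 15) and the two-sided quasi-likelihood test with robust shrinkage, with Benjamini-Hochberg adjustment over 10470 of the 18202 genes with a count. Standard errors came from the F statistic. CPM used all counts of a library. Alternatives were library size only, DESeq2 1.42.0, no filter, the 2 groups alone, omissions of libraries and a replicate block. The test was tried on simulated data. p-values measure the spread between these samples, which may be technical.

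The named genes were hrde-1, sid-1 with its 3 neighbours on either side, up to 20 called genes in each direction by adjusted p with at least 10 CPM and groups that did not overlap, the neighbours of the top 5 called in each direction, up to 3 genes of each list by p, and the 8 most abundant. The called genes beyond the first 20 were named after their values were seen, as were srd-73, overlapping genes and chromosome X. Gene lists came from general knowledge of the field and symbol patterns; a list for the mitochondrial genome matched no symbol. The members and lists were chosen with earlier results of these data known. Medians of lists were the same to 2 decimals with genes at 0 in one strain set to their bound.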

Additional observations from a re-analysis of the deposited data

Results flagged for a closer look

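Among 54 values checked for a library that stands apart from its 4 HC125 replicates, 1 was found, where chance alone gives about 1 in 20. suca-1 had 29.98 CPM in HC125 replicate 1 and 14.4 to 15.5 in the other HC125 libraries. Replicate 1 was the shallowest HC125 library, and its part in the value was not tested. Without it the log2 fold change of suca-1 against N2 was -2.19 and the call was kept.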

How the results depend on the processing

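The count of called genes (53, with 23 higher and 30 lower) depended on the libraries. Leaving out 1 library gave 30 to 91 calls, with 12 to 39 higher and 12 to 52 lower. DESeq2 called 95 genes, 31 higher and 64 lower, and library size scaling alone 50, 26 higher and 24 lower. Without the low-count filter 256 were called (93 and 163), and with N2 and HC125 fitted alone 18 (12 and 6). With N2 replicate 2 and HC125 replicates 1 and 2 left out, 489 were called (220 and 269); with HC125 replicates 1 and 2 left out, 780 (280 and 500); with HC125 replicates 3 and 4 left out, 11 were lower. The N2 and HC125 libraries share replicate numbers only: deviations of same-numbered libraries correlated at -0.19 for number 1 and 0.312 for number 2. Across numbers the libraries split. HC125 replicates 1 and 2 went with N2 replicate 2 (0.19 and 0.312), and HC125 replicates 3 and 4 with N2 replicate 1 (0.256 and 0.357). Deviations are from the group mean, so those of the 2 N2 libraries mirror each other. Each HC125 library must therefore go with 1 of them and against the other, and both signs must occur within HC125. What lies behind this split was not tested. A replicate block gave 43 calls, 27 higher and 16 lower. sid-1 kept its call in all 14 alternatives, as did 10 called genes in all; unc-54 lost it under the block and with N2 replicate 2 and HC125 replicates 1 and 2 left out, and the causes were not tested.

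Signs reversed in values that were not called, though msp-49 was called lower without the low-count filter (-1.36) and without HC125 replicates 1 and 2 (-1.80). With single libraries left out, ugt-63 ranged from -1.29 to 5.82, F14F9.4 from -0.83 to 0.44, Y52B11A.18 from -0.39 to 0.24, zip-2 from -0.42 to 0.19, F15D4.5 from -0.39 to 0.02 and msp-49 from -1.96 to 0.06, and ttn-1 against the non-array groups from -0.10 to 0.15. ugt-63 was at -0.19 with DESeq2, -0.97 with N2 replicate 2 and HC125 replicates 1 and 2 left out and -0.92 under the block. F14F9.4 was at 0.51 without HC125 replicates 3 and 4 and 0.54 under the block, and dpy-10 at -0.18 and -0.19. In the joint omission Y52B11A.18 was at 0.18 and C04F5.9 at -0.05, and without HC125 replicates 1 and 2 Y52B11A.18 was at 0.41 and zip-2 at 0.03. Against the non-array groups srd-71 was at 0.04 without HC125 replicates 3 and 4, and ttn-1 at -0.01 without the filter, -0.15 in the joint omission and -0.12 without HC125 replicates 1 and 2. The 2 shallow N2 libraries limit every fold at low levels.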
